A study of Rattus norvegicus with 12 samples.

Results

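Small DNA circles that map to the keratin, keratin-associated protein and cornified envelope genes of rat skin are described here. The set holds every listed extrachromosomal circular DNA (eccDNA) annotated to an exon, an intron or the 2 kb on either side of a gene whose symbol starts with Krt, Krtap, Lce or Sprr and a digit, or is Lor, Flg, Ivl or Hrnr. It comes to 136 of the 228353 eccDNA listed in the series. Of these, 95 are genic (35 in exons, 60 in introns) and 41 lie in flanks (20 upstream, 21 downstream). They carry 61 gene symbols, 41 with a genic circle and 20 with flank circles only. A circle counts as a member when any gene listed for it matches, and 37 of the 136 list several genes.

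Circular DNA was sequenced by Circle-seq from back skin of wild-type SD rats, after column enrichment and exonuclease removal of linear DNA, in 12 libraries. The 4 control libraries came from untreated skin. The 4 libraries of the 5 Gy x2 group came from skin irradiated once a week with 5 Gy of electrons for 2 fractions, and the 4 of the 5 Gy x4 group for 4 fractions, each sampled on day 7 after the last one. Dose and time since the first fraction rise together and cannot be told apart, and no sampling time is labelled for the control. Whole skin holds epidermis, hair follicles, dermis and other cells, and circular DNA carries no mark of the cell it came from. Nothing in the labels ties each library to an animal of its own, so p-values measure only library-to-library spread, which may be technical.

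Keratins are the intermediate filament proteins of epithelial cells, built as pairs of 1 acidic type I and 1 basic type II chain. Hair keratins are cross-linked by the cysteine-rich keratin-associated proteins (Krtap). In the outermost epidermis, loricrin, involucrin, and the small proline-rich (Sprr) and late cornified envelope (Lce) proteins are cross-linked beneath the cell membrane into the cornified envelope. Filaggrin and hornerin, from the S100 fused-type family, are large repeat proteins of the same layers.

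The genes sit in arrays. The type II keratins lay on chromosome 7 (35 member circles over 0.604 Mb of rn6), the type I keratins and most Krtap genes on chromosome 10 (74 circles over 1.03 Mb), and the Lor, Sprr, Lce and Hrnr genes on chromosome 2 (19 circles over 1.65 Mb). A further Krtap array on chromosome 11 gave 7 circles. Neighbouring genes in these arrays resemble each other in sequence, and how reads that fit more than 1 place were handled is not given in the sources used here, so the assignment of a circle to a single family member is uncertain. No rn6 sequence was used here, so the circles are given by position and not by letters.

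Between the groups, the number of genic member circles was level while all genic circles were more numerous after irradiation. A call is 1 circle with at least 1 supporting read in 1 library. The control libraries held 5, 11, 13 and 8 genic member calls. The 5 Gy x2 libraries held 8, 14, 11 and 3, and the 5 Gy x4 libraries 4, 15, 11 and 5. The groups overlapped almost fully, with means of 9.25 ± 3.5, 9.0 ± 4.69 and 8.75 ± 5.19 (SD, n = 4 each). All genic eccDNA over the same libraries averaged 2616, 7433 and 12342 per library, 2.84-fold and 4.72-fold the control mean in the 5 Gy x2 and 5 Gy x4 groups.

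As a share, genic member circles were therefore lower after irradiation. Per 10000 eccDNA of the library, the control libraries gave 10.4, 11.6, 12.5 and 22.2. The 5 Gy x2 libraries gave 4.21, 4.87, 4.01 and 4.74, and the 5 Gy x4 libraries 1.81, 3.35, 2.38 and 2.48. With all circles counted, no 2 groups overlapped: each 5 Gy x4 library lay below each 5 Gy x2 library, and each of those below each control library. The means were 14.2 ± 5.41, 4.46 ± 0.414 and 2.51 ± 0.638 (SD, n = 4 each), a fold of 0.314 for 5 Gy x2 and 0.177 for 5 Gy x4 over control, and 0.563 for 5 Gy x4 over 5 Gy x2. Control replicate 4 was the highest library, and without it the folds over control were 0.387 and 0.218.

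**Figure D1:**
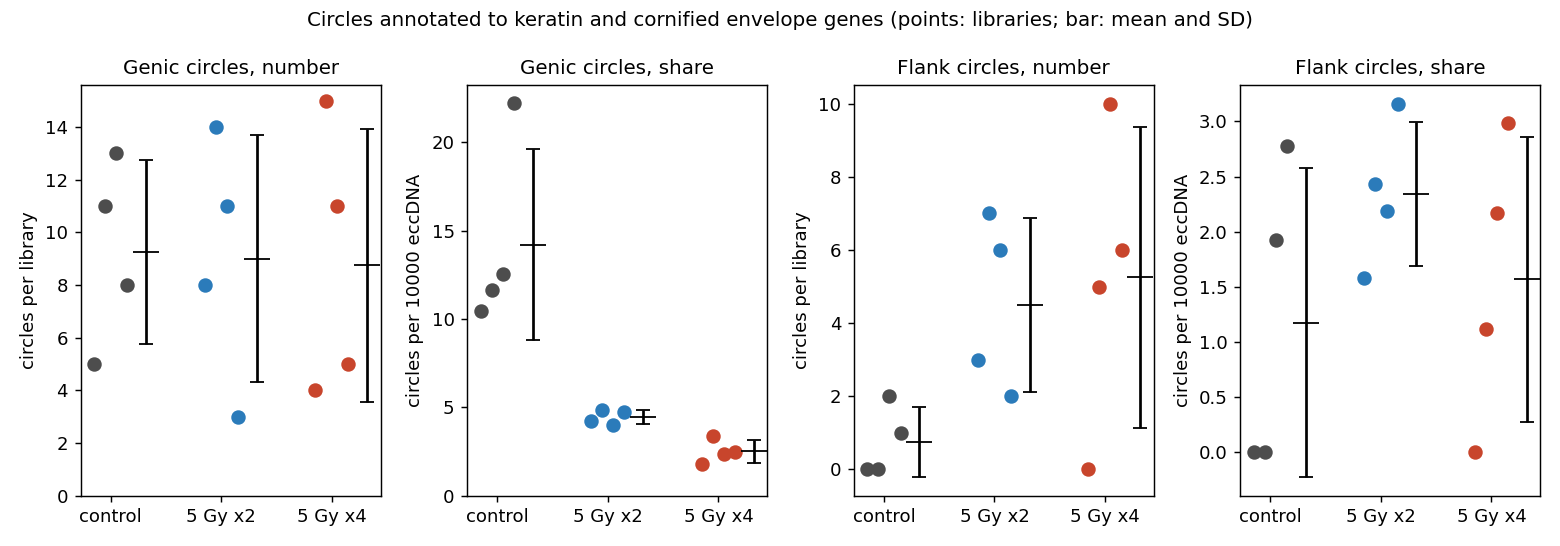
Genic and flank member circles in each library, as the number of circles and per 10000 eccDNA of the library; points are libraries, and the bar is the group mean with its SD (n = 4). The number of genic circles is level across groups, their share is 14.2, 4.46 and 2.51 per 10000 with no overlap, and the flank panels overlap.

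Other gene families of the table give the background for this pattern. Families were formed from the letters of the symbol before its first digit, and 346 of them had at least 50 genic calls over the 12 libraries. In these, all 4 libraries of 5 Gy x2 lay below all 4 of control in 2.31%, those of 5 Gy x4 below control in 4.05%, and those of 5 Gy x4 below 5 Gy x2 in 0.867%. The full order of the member set, 5 Gy x4 below 5 Gy x2 below control in every library, was met by 0.0% of them. The median family had a fold of 1.08 in the 5 Gy x2 and 1.12 in the 5 Gy x4 comparison with control. In 4 of the 346 families the 5 Gy x2 fold was below the members' 0.314, and in 0 the 5 Gy x4 fold was below their 0.177, the lowest family being at 0.194. Krt by itself is 1 of the 346 families, with 65 calls and folds of 0.36 and 0.288. The cut at 50 calls is met mostly through irradiated libraries, which hold most calls, so it can leave out families that are low there. Families with at least 10 genic calls spread more widely. Their 10th percentile of the fold over control was 0.353 in 5 Gy x2 and 0.349 in 5 Gy x4, against 0.595 and 0.606 at 50 calls. The member set sums several families chosen together, so these shares describe where it lies and are no test.

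**Figure D2:**
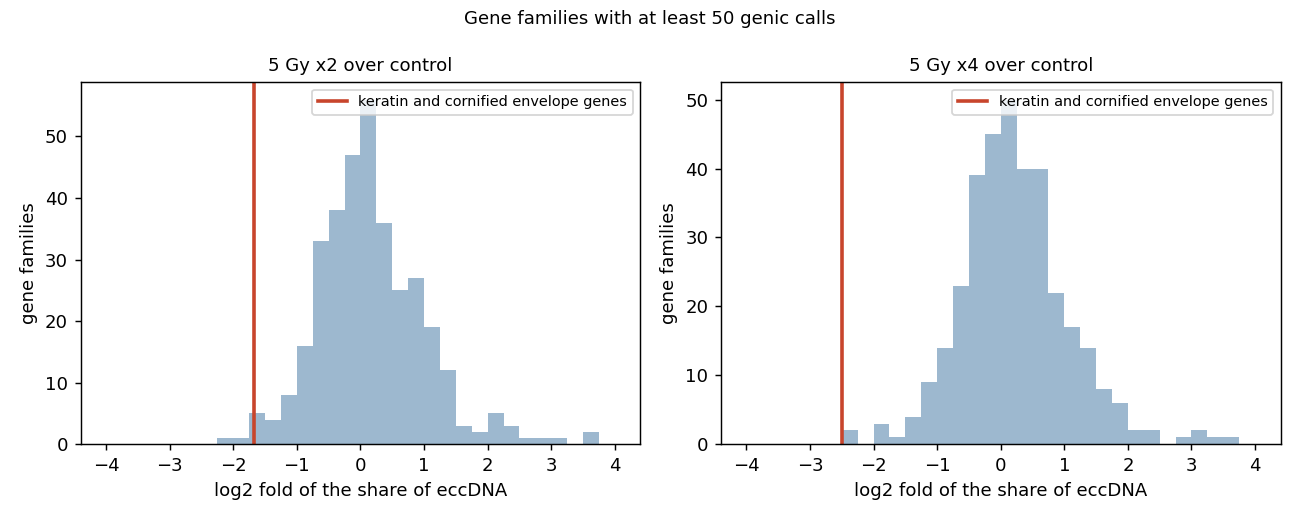
Distribution over 346 gene families with at least 50 genic calls of the log2 fold of the share of eccDNA, for 5 Gy x2 over control and 5 Gy x4 over control; the vertical line is the member set. The line stands at folds of 0.314 and 0.177, in the low tail on the left panel and below the lowest family, 0.194, on the right.

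The number of eccDNA itself moved with the groups, from 3601 to 10389 in control libraries, 6326 to 28757 in 5 Gy x2 and 20124 to 46163 in 5 Gy x4, and its part in the shares was not tested. Divided by supporting reads in place of eccDNA, the fold over control came to 0.697 in 5 Gy x2, with overlapping groups, and to 0.387 in 5 Gy x4, without overlap. Counting circles with 1 listed gene only, the 5 Gy x4 fold over control was 0.255 and the groups overlapped. Counting only circles with the authors' label hconf, which their table does not define, the folds over control were 0.455, with overlapping groups, and 0.255, without overlap. The irradiated groups overlapped each other under all 3 of these counts, and also when circles of 1 library only were counted. How many gene families separate under these counts was not examined.

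With all 12 libraries, no member family or gene passed a test for a changed share by itself, and the call for Krt depended on which libraries and filter were used. In edgeR's quasi-likelihood test with its default filter, neither the 119 families nor the 17 genes tested included a member. With a minimum of 10 calls the fit took in 1792 families, among them Krt and Krtap but not Lce or Sprr. Of these 2, 0 passed an adjusted p of 0.05 in any comparison, against 0.0% of all families for 5 Gy x2, 0.502% for 5 Gy x4 over control and 0.0% between the irradiated groups. At an unadjusted p under 0.05, the counts over all families were 246, 356 and 50 in these comparisons, with 0, 2 and 1 of the 2, and DESeq2 called 0, 2 and 0 families. In this sparse fit TMM scaling set the median family at a log2 fold of 0.61 and 0.78 for 5 Gy x2 and 5 Gy x4 over control, so each value is read against that level. Krt had log2 fold changes of -0.92 (SE 0.52, adjusted p = 0.371) for 5 Gy x2 and -1.06 (SE 0.49, adjusted p = 0.227) for 5 Gy x4. Krtap had -0.46 (SE 0.71, adjusted p = 0.798) and -2.11 (SE 0.82, adjusted p = 0.192). Scaled by library size alone, the median family stood at 0.05 and 0.15, Krt at -1.51 and -1.70 (adjusted p = 0.271 and 0.0646), and Krtap at -1.04 and -2.73 (adjusted p = 0.609 and 0.114). Both families were below the median family in both comparisons under both scalings, without a call. Leaving out 1 library let Krt through the default filter in 9 of 12 fits, where it was the only member family tested. It failed that filter without control replicate 2, 3 or 4. Its entry thus rested on control libraries, the group where its share is highest, so a pass in these fits is no support for a lower share. Krt was lower for 5 Gy x4 over control in these fits and passed in 6 of the 9. It passed without control replicate 1, without any 1 of the 5 Gy x2 libraries, or without replicate 2 of 5 Gy x4. Its log2 fold changes in the 9 ran from -1.89 to -1.54, with edgeR adjusted p from 0.0146 to 0.0901, and 3.42% to 5.11% of families passed in the 6 fits. For 5 Gy x2 over control it passed in 0 of the 9 (adjusted p from 0.0519 to 0.269).

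Among the roles, the type I keratins (20 genes, 30 genic circles) gave 11 genic calls in each group. They were spread as 0, 3, 5 and 3 over the control libraries, 1, 5, 3 and 2 over 5 Gy x2, and 2, 6, 2 and 1 over 5 Gy x4. The largest part came from Krt14, the type I partner of the basal layer, whose 10 genic circles gave 0, 2, 2 and 2 calls in control libraries, 0, 3, 0 and 1 in 5 Gy x2, and 1, 1, 0 and 1 in 5 Gy x4. Its circles spread over 41.5 kb and 9 of the circles listed for it also name another gene, so they cannot be given to Krt14 alone. In the fit of the 2579 genes with at least 10 calls, Krt14 had a log2 fold change of -1.86 for 5 Gy x4 over control (SE 0.95, edgeR adjusted p = 0.185).

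Other type I keratins were seldom hit. Krt17, a keratin of the hair follicle and of stressed epidermis, had 5 intronic circles, in 2 control, 2 of 5 Gy x2 and 1 of 5 Gy x4 libraries. Krt9, the keratin of palm and sole skin, had 3 exonic circles, all 3 also annotated to a second gene, in 3 control libraries and replicate 2 of 5 Gy x2. Krt26 and Krt28, of the inner root sheath of the hair, had 2 genic calls each. Krt40, a hair keratin, had 2 exonic circles, both in replicate 3 of 5 Gy x2, which overlap by 31 bp. Krt222, a keratin-like gene at the start of the array, had 3, in control replicate 3 and replicate 2 of 5 Gy x4.

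Type II keratins (18 genes, 31 genic circles) gave 8 genic calls in the control group, 8 in the 5 Gy x2 group and 16 in the 5 Gy x4 group. By library these were 0, 3, 3 and 2, then 4, 1, 3 and 0, then 1, 5, 6 and 4, with overlapping groups. This was the only role with more genic calls in 5 Gy x4 than in control, by number. As a share of eccDNA calls it was lower, at 16 of 133093 in 5 Gy x4 against 8 of 28230 in control. Krt5, the type II partner of Krt14, led with 15 circles, each called once, at 0, 3, 1 and 2 in control libraries, 1, 0, 1 and 0 in 5 Gy x2, and 1, 0, 3 and 3 in 5 Gy x4. Its annotation covers 130.4 kb of circles, and 8 of them also name another keratin gene of the array. Krt5 had a log2 fold change over control of -1.94 in 5 Gy x2 (SE 1.06, adjusted p = 0.303) and -0.79 in 5 Gy x4 (SE 0.84, adjusted p = 0.521). Krt7, a keratin of simple and glandular epithelia, had 3 intronic circles, 1 in each group. Krt1 and Krt2, of the layers above the basal layer, had 2 genic calls each, and Krt4, of mucosal epithelia, had 1 exonic circle in replicate 3 of 5 Gy x2 and replicate 4 of 5 Gy x4.

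Keratin-associated proteins (15 genes, 20 genic circles) gave 2 genic calls in each control library, 1, 7, 3 and 0 in 5 Gy x2, and 1, 2, 2 and 0 in 5 Gy x4. Of these 24 calls, 21 carry Krtap4-3, with 2 calls in each control library, 1, 6, 3 and 0 in 5 Gy x2 and 1, 1, 1 and 0 in 5 Gy x4. Every control library was above every 5 Gy x4 library for this gene, which held for 0.0775% of the genes with at least 10 calls. Its 17 genic circles cover 167.6 kb, and 14 of them are shared with a gene that has no symbol, so the label stands for a stretch of the chromosome 10 array more than for 1 gene. Krtap4-3 had log2 fold changes over control of -0.27 in 5 Gy x2 (SE 0.73, adjusted p = 0.882) and -2.26 in 5 Gy x4 (SE 0.90, adjusted p = 0.106). In that fit 3 member genes (Krt5, Krt14 and Krtap4-3) could be tested and 0 passed, against 0.0% of all genes for 5 Gy x2 and 0.116% for 5 Gy x4. At an unadjusted p under 0.05 there were 431 and 680 genes, and 0 and 1 of these members (Krtap4-3). Without the circles of these 3 genes, the share of the remaining genic member circles had folds over control of 0.447 and 0.226, without overlap. The irradiated groups then overlapped, and no such subset of other gene families was examined.

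The cornified envelope genes gave few circles, and Lor most of them. Lor, whose product loricrin is the main protein of the cornified envelope, had 7 exonic circles within chr2:191984796-191985825 of rn6, a stretch of 1.03 kb, and each of them overlaps another of the 7. It was found in all 4 control libraries, with 2, 2, 1 and 1 calls. The 5 Gy x2 libraries had 0, 0, 1 and 1, and the 5 Gy x4 libraries none. The irradiated libraries are deeper in circles, so the pooled shares lay further apart, at 6 of 28230 calls in control (2.13 per 10000) and 2 of 81532 in 5 Gy x2 (0.245 per 10000). A count of 0 in the 133093 calls of 5 Gy x4 allows up to 0.225 per 10000 (3 counts over the group), which puts control, taken as counted, at least 9.43-fold higher. The 6 control calls have an exact 95% Poisson interval of 2.2 to 13.1 calls, and at its lower end the fold over the same floor is 3.46. These limits cover counting error only and were chosen after the data were seen.

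Of all 14890 genes with a genic circle, 254 (1.71%) were found in all 4 control libraries, and 3 of those (1.18%) in no 5 Gy x4 library. Lor is 1 of the 3, beside Cylc2 and Pde6h, which are named here after their values were seen. Lor enters this count through control, where its share is high. The comparison was chosen after the data were seen, so the count is no support for a lower share. The Lor calls rest on 5 to 13 supporting reads per control library, and the low count leaves Lor outside both gene fits. Upstream of Lor were circles of 345 bp in replicate 3 of 5 Gy x2 and of 464 bp in replicate 3 of 5 Gy x4, and 0 in control. Flank calls of all genes were also fewest in control, 945 against 2637 in 5 Gy x2 and 4255 in 5 Gy x4.

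Hrnr, the gene of hornerin, held the member circle found in most libraries, an exonic circle of 3755 bp at chr2:193633688-193637442. It had 40, 48 and 90 supporting reads in control replicates 1, 2 and 3, 48 in replicate 3 of 5 Gy x2 and 6 in replicate 3 of 5 Gy x4, 232 reads in all. A second circle of 1673 bp, annotated downstream of Hrnr, lies wholly within it and had 14 reads in replicate 4 of 5 Gy x2 and 58 in replicate 4 of 5 Gy x4. Together these 2 were the member circles with most reads. Sprr1a, Sprr3, Lce1l and Lce1m had 1 genic circle each, with 1, 3 and 0 calls over control, 5 Gy x2 and 5 Gy x4. Flg and Ivl, for filaggrin and involucrin, have no circle in the list.

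**Figure D3:**
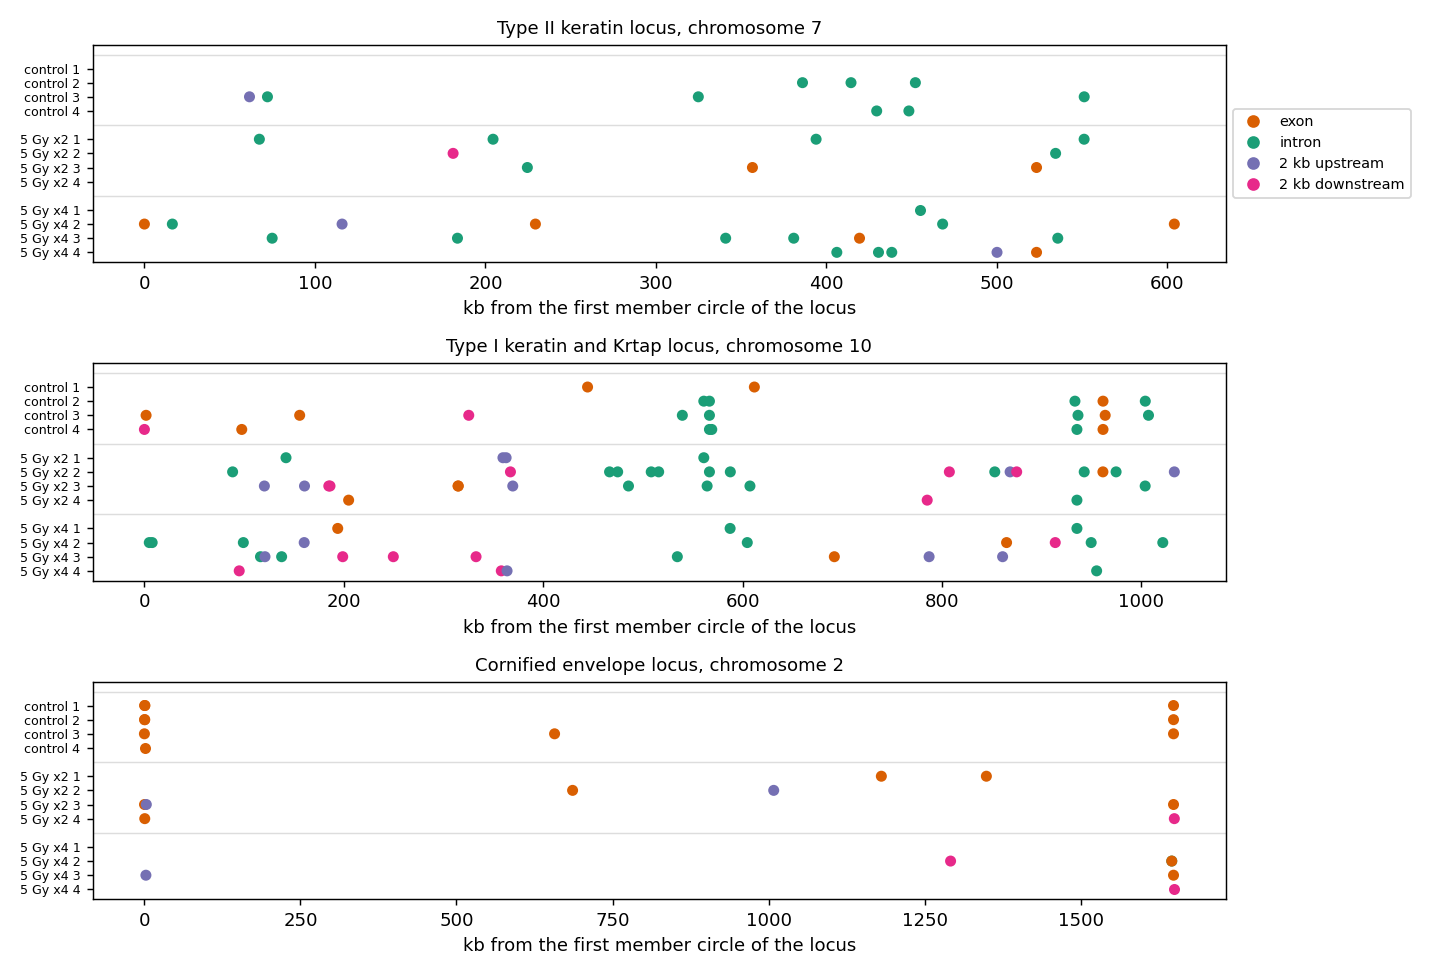
Member circles along the 3 main gene arrays, by distance in kb from the first member circle; each row is a library and each point a circle present in it, coloured by annotation. Lor stands at the far left of the bottom panel, with exonic circles in the 4 control libraries and in 2 of 5 Gy x2, and Hrnr at the far right.

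Recurrence was uncommon, as in the whole list. Of the 136 member circles, 8 (5.88%) were found in 2 or more libraries, against 3.91% of all eccDNA. Besides the pair at Hrnr they include 2 intronic circles of Krtap4-3. The first, of 487 bp, had 10, 10 and 39 reads in control replicates 2, 3 and 4 and 4 reads in replicate 2 of 5 Gy x2. The second, of 328 bp, had 7 reads in control replicate 2 and 54 in replicate 1 of 5 Gy x2. An intronic circle of 444 bp at Krt14 was seen in 1 library of each group. Exonic circles of 180 bp at Krt9 and Krt14 and of 304 bp at Lor were seen in control replicates 2 and 4 only. On genic member circles, 12 of 37 control calls (32.4%) fell on recurrent circles, 5 of 36 (13.9%) for 5 Gy x2 and 3 of 35 (8.57%) for 5 Gy x4. On other genic circles the same percentages were 26.6, 9.53 and 7.15. With circles of 1 library only, the folds over control were 0.311 and 0.181.

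Genic member circles lay in exons more often than the genic circles of other genes. Exonic calls numbered 5, 4, 6 and 3 in control libraries, 2, 3, 6 and 2 in 5 Gy x2, and 1, 6, 3 and 1 in 5 Gy x4, a total of 42 of 108 genic calls (38.9%). Other genic circles were exonic in 12.5% of calls, which gives an expected 12.6 for the members when computed within each library. The excess of 29.5 calls had a two-sided permutation p of 0.000488 over the 4096 sign patterns of 12 libraries, the smallest they can give (adjusted p = 0.000977 over 2 tests), and observed was above expected in 12 of 12 libraries. By group, 18 were observed against 3.41 expected in control, 13 against 4.5 in 5 Gy x2, and 11 against 4.64 in 5 Gy x4. With 1 listed gene only the excess was 27.4. The libraries share the same genes and annotation, so the p measures how the excess repeats over libraries and not a preference for exons. All 7 genic circles of Lor were exonic. The share of each gene's own length that is exon was not measured, and its part in this excess was not tested.

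**Figure D4:**
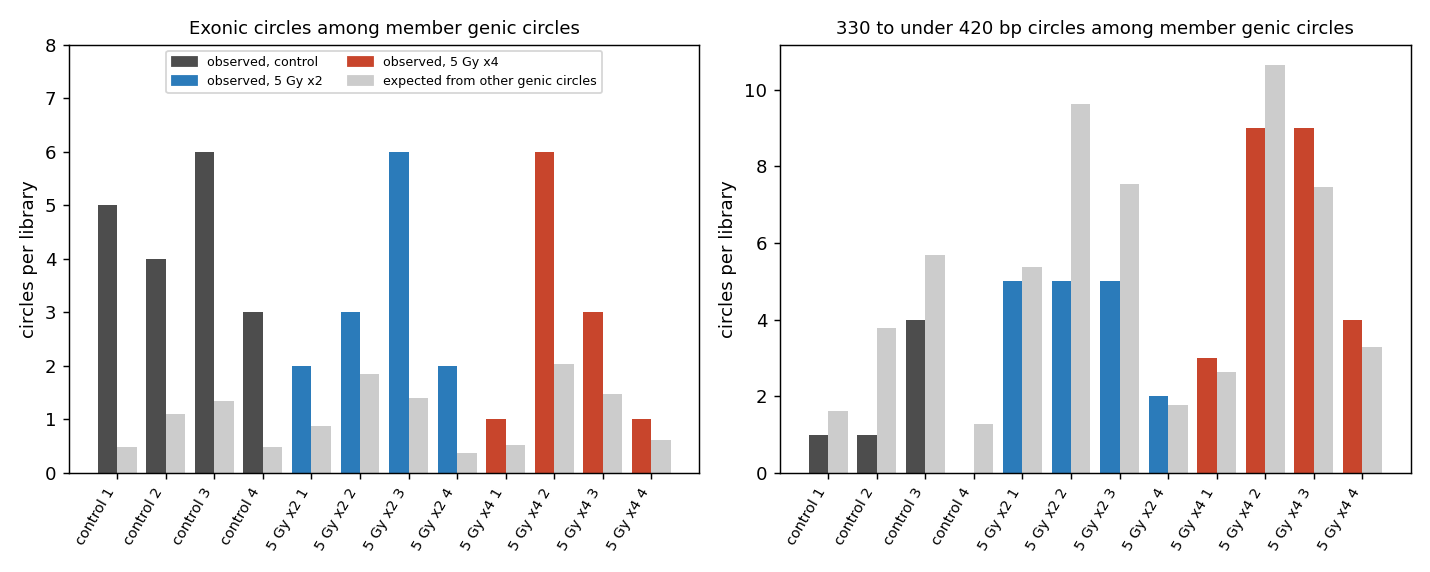
Left, exonic circles among genic member circles in each library beside the number expected from the exonic share of all other genic circles of that library; right, the same for circles of 330 to under 420 bp. Exonic circles exceed the expected number in 12 of 12 libraries, and those of 330 to under 420 bp in 4 of 12.

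More of the genic member calls fell in 1 narrow length class in the irradiated groups. Over the whole list that class, of 330 to under 420 bp, takes a larger share of the eccDNA in irradiated than in control libraries. Genic member calls in this class numbered 1, 1, 4 and 0 in control libraries, 5, 5, 5 and 2 in 5 Gy x2, and 3, 9, 9 and 4 in 5 Gy x4. Calls of all other lengths summed to 31, 19 and 10. The class made up 16.2%, 47.2% and 71.4% of genic member calls, against 35.0%, 67.5% and 68.1% of other genic calls. Over all libraries 48 members were in the class against 60.6 expected, a difference of -12.6 with a permutation p of 0.0562 (adjusted p = 0.0562), short of the threshold. Leaving out replicate 1, 3 or 4 of 5 Gy x4 moved p to 0.0469, 0.0205 or 0.0381, and observed was above expected in 3 of 4 libraries of 5 Gy x4 and 1 of the other 8.

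The folds of the member share over control were below 1 within this class and outside it, and control stood apart only outside it. Control held only 6 genic member calls in the class. Set against eccDNA of the same class, members of 330 to under 420 bp stood at 4.49 ± 3.78, 3.57 ± 1.26 and 2.72 ± 0.433 per 10000 (SD, n = 4 each), with overlapping groups and folds of 0.796 and 0.605 over control. Members of other lengths stood at 17.7 ± 6.07, 6.47 ± 2.64 and 2.15 ± 1.58 per 10000 eccDNA of other lengths. Each irradiated group lay below all control libraries there, with folds of 0.365 and 0.121, while the irradiated groups overlapped. How many gene families separate among circles of other lengths was not examined. Under 250 bp there were 15 genic member calls in control libraries, against 12 in 5 Gy x2 ones and 3 in 5 Gy x4 ones. Whether the fold differs between the length classes was not tested.

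**Figure D5:**
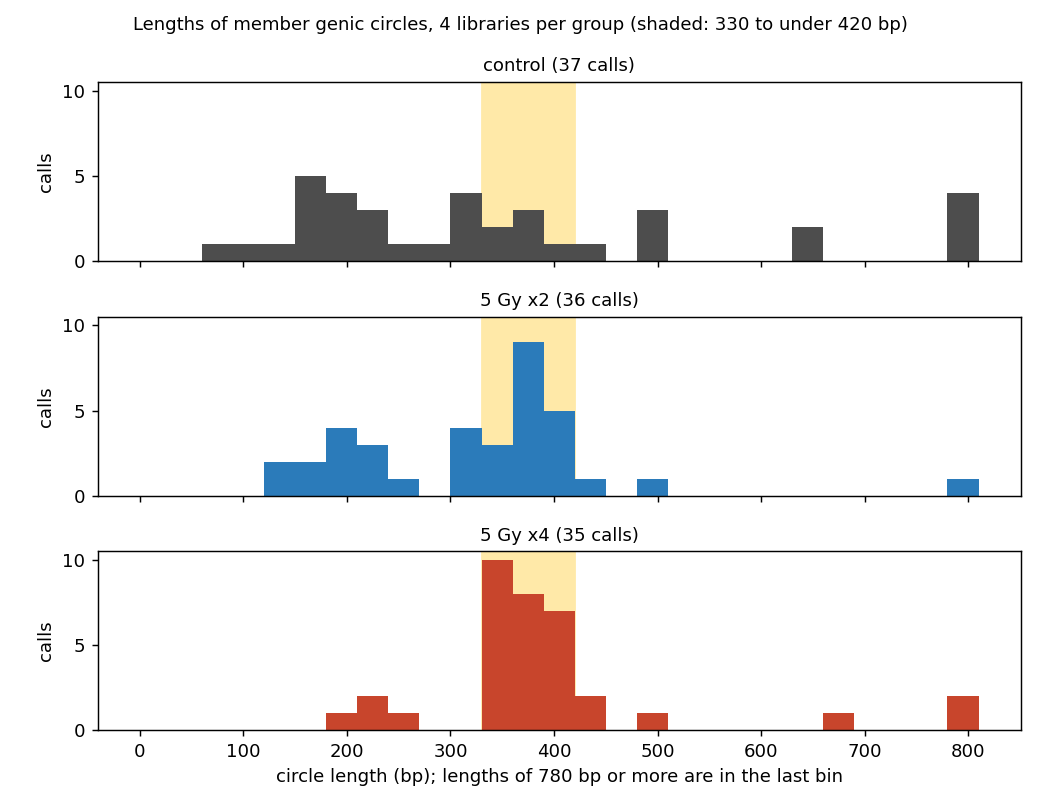
Lengths of genic member circles in the 3 groups, 4 libraries summed in each panel, in bins of 30 bp; the shaded band is 330 to under 420 bp and the last bin holds all longer circles. The band holds 6 of 37 control calls, 17 of 36 calls of 5 Gy x2 and 25 of 35 of 5 Gy x4.

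The longest member circles were a Krtap4-3 circle of 4319 bp in control replicate 3, the Hrnr circles of 3755, 1673 and 1549 bp, and a Krt80 circle of 673 bp in replicate 2 of 5 Gy x4. All others were shorter, down to 70 bp, with a median of 354 bp over the 136 members against 360 bp over all eccDNA. An intronic Krt7 circle of 208 bp had 41 reads in replicate 1 of 5 Gy x2. Supporting reads per member circle averaged 15.7 ± 6.45, 9.72 ± 8.24 and 6.31 ± 6.04 in the 3 groups (SD, n = 4 each), beside 16.7, 10.6 and 8.84 for all eccDNA. The authors' table gives 39 members the label hconf, 30 conf and 67 lconf; 28.7% of members and 26.4% of all eccDNA carry hconf. None of the 157 larger circles listed apart as ecDNA is annotated to a member gene.

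Flank circles of these genes were more numerous in most irradiated libraries than in control. Within 2 kb upstream or downstream, they numbered 0, 0, 2 and 1 in control libraries, 3, 7, 6 and 2 in 5 Gy x2, and 0, 5, 10 and 6 in 5 Gy x4. In number the irradiated means were 6-fold and 7-fold the control mean (0.75 ± 0.957, 4.5 ± 2.38 and 5.25 ± 4.11; SD, n = 4 each), with groups that overlap. Per 10000 eccDNA the values were 1.18 ± 1.40, 2.34 ± 0.655 and 1.57 ± 1.29, with folds of 1.99 and 1.33 over control and overlapping groups. These folds rest on single libraries. The 5 Gy x2 fold was 3.65 without control replicate 4, and the 5 Gy x4 fold was 2.44 without that library, 0.999 without control replicate 1 or 2, and 0.931 without replicate 4 of 5 Gy x4.

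Flank circles made up 0, 0, 13.3 and 11.1% of member calls in control libraries. The 5 Gy x2 libraries gave 27.3, 33.3, 35.3 and 40.0%, all above control, and the 5 Gy x4 libraries 0, 25, 47.6 and 54.5%, which overlap control. The control percentages rest on 0, 0, 2 and 1 flank circles. Genic member circles, whose share is lower after irradiation, are part of the base. How many gene families separate in this way was not examined, so the order describes the members only. Over all genes the flank share of gene circles was steady at 7.53% to 8.76% in every library. In the flank fit, with 78 families of at least 10 calls, Krt and Krtap were tested and 0 passed, against 3.85% of families for 5 Gy x2 and 10.3% for 5 Gy x4 over control. At an unadjusted p under 0.05 there were 10 and 22 families, neither of them a member, and DESeq2 called 0 and 5 families. The log2 fold changes were 1.53 and 1.23 for Krt and 1.78 and 2.03 for Krtap (edgeR adjusted p = 0.464, 0.377, 0.464 and 0.244). Under scaling by library size alone the Krt value for 5 Gy x4 was -0.06, so its direction is not settled.

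Type I keratins and Krtap genes had 16 flank circles each, type II keratins 4, Lor and Lce 2 each and Hrnr 1. Krtap1-1 had most, 3 upstream circles of 380, 387 and 186 bp, with the first pair in replicate 1 of 5 Gy x2 and the last in replicate 4 of 5 Gy x4. The circle of 380 bp also lists Krtap1-5, so it cannot be given to Krtap1-1 alone. Krt10, of the layers above the basal layer, had upstream circles in replicate 3 of 5 Gy x2 and replicate 2 of 5 Gy x4. Krt27, of the inner root sheath, had them in replicate 3 of both irradiated groups. Krt12, of the cornea, had 2 downstream circles in replicate 3 of 5 Gy x2, and Krtap1-3 had 1 on either side, in replicates 2 and 3 of 5 Gy x2. None of Krtap1-1, Krt10, Krt27, Krt12 and Krtap1-3 had a flank circle in control. Flank calls of all genes were also fewest there, 945 against 2637 in 5 Gy x2 and 4255 in 5 Gy x4.

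Krt10, Krt27, Krtap1-1 and Lor, counted after the data were seen, were the genes with at least 2 upstream circles, all in irradiated libraries. Those libraries also held most flank calls of all genes, 2637 in 5 Gy x2 and 4255 in 5 Gy x4 against 945 in control. The circles are annotated to the 2 kb upstream and need not lie in the 250 bases before the gene starts, which are shown here. They are from RefSeq on GRCr8, 5′ to 3′ on the gene's strand (minus for all): Krt10 at chr10:84839161-84839410, Krt27 at chr10:84800132-84800381, Krtap1-1 at chr10:85042477-85042726 and Lor at chr2:180256573-180256822. Capitals mark TATAAA and TGACTCA on either strand, the letters of the TATA box and of the AP-1 site. The circles are on rn6, so they were not placed on these letters.
Krt10: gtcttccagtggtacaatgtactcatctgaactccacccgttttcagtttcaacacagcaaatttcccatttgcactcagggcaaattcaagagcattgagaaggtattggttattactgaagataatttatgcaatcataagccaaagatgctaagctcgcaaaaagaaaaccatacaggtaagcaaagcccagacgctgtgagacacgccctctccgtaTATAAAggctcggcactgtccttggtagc
Krt27: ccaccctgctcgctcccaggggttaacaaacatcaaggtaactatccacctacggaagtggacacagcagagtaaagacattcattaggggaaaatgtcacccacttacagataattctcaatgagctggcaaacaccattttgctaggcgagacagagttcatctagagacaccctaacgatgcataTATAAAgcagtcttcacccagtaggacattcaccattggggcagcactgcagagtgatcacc
Krtap1-1: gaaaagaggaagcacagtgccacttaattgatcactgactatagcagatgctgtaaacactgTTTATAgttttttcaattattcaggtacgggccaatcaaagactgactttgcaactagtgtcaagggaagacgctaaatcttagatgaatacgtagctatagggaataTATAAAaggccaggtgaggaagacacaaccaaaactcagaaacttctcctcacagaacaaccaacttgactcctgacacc
Lor: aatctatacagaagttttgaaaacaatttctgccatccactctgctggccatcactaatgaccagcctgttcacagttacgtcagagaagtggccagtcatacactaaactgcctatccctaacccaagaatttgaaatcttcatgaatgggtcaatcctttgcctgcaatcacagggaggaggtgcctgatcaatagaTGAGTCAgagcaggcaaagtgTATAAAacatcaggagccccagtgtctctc
Each of the 4 windows holds TATAAA on the gene's strand, Krtap1-1 also on the other strand, and Lor holds TGACTCA on the other strand. Over the 53 promoters of member genes in the RefSeq table, 37 (69.8%) hold TATAAA and 6 (11.3%) hold TGACTCA on either strand, against 12.9% and 4.05% of 33469 promoters. Their median GC content was 44.8% against 51.2%. A match describes the letters only and is no shown site.

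Windows of 1 Mb, with more circles than single genes, gave the arrays a test of their own. Each window counts all eccDNA whose midpoint lies in it, members or not. Genic member circles fell in 9 windows, of which 5 were among the 749 tested by edgeR's quasi-likelihood test. Of these 5, 0 passed an adjusted p of 0.05, against 4.27% of all windows for 5 Gy x2 over control, 6.68% for 5 Gy x4 over control and 0.134% between the irradiated groups. At an unadjusted p under 0.05 there were 130, 154 and 37 windows, with 1, 1 and 0 of the 5, and DESeq2 called 3, 14 and 0 windows, with 0 of the 5.

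The window with Hrnr and the Lce genes, chr2:193000001-194000000, held 7, 9, 7 and 4 circles in control libraries, 9, 8, 17 and 3 in 5 Gy x2, and 9, 15, 14 and 9 in 5 Gy x4. Relative to the other windows its log2 fold change was -1.01 for 5 Gy x4 over control (SE 0.38, adjusted p = 0.0857). This window reached the level of the default filter in every control library and in no 5 Gy x4 library. It was thus tested through the group where its share is high, and a pass under that filter is no support. It passed without control replicate 3 (adjusted p = 0.0401) or without replicate 1 or 4 of 5 Gy x2 (adjusted p = 0.0492 and 0.0405), with a minimum of 10 circles (adjusted p = 0.0173, where 3.52% of 2782 windows passed) and with library size alone (adjusted p = 0.00403). The window at the start of the type II array, chr7:142000001-143000000, has a Krt80 circle at its end and 170 calls in all. It had -0.91 for 5 Gy x2 (SE 0.37, adjusted p = 0.152) and passed with a minimum of 10 circles (adjusted p = 0.0286, where 2.01% passed) and with library size alone (adjusted p = 0.0205). Its value for 5 Gy x4 was -0.62 (adjusted p = 0.269, or 0.0434 with library size alone).

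Over the arrays from first to last member circle, circles per Mb relative to the genome mean of the library differed by array. For control, 5 Gy x2 and 5 Gy x4, the chromosome 7 array stood at 2.15 ± 0.80, 1.16 ± 0.27 and 1.501 ± 0.17 (SD, n = 4 each). Values for the chromosome 10 array were 2.91 ± 2.58, 2.13 ± 0.68 and 1.28 ± 0.36, and for the chromosome 2 array 1.49 ± 0.68, 1.13 ± 0.32 and 0.996 ± 0.19. In the Krtap array of chromosome 11 the mean was lowest in control and highest in 5 Gy x4, at 0.455 ± 0.53, 0.607 ± 0.44 and 0.819 ± 0.20. Control libraries held a mean of 1.0 circle there, from 0 to 2. The groups overlapped in each array. The ends of these stretches are set by the member circles themselves, so their densities are a description.

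Other genes of cornification and of the desmosome, the junction to which keratins anchor, were taken as a list of 45. Of these, 34 had a genic circle, with 33 calls in the control, 68 in the 5 Gy x2 and 82 in the 5 Gy x4 group. Per 10000 eccDNA they stood at 12.045 ± 4.68, 9.28 ± 4.30 and 6.07 ± 1.06 (SD, n = 4 each). The lowest control library, at 8.33, was above the highest 5 Gy x4 library, at 7.15, and 5 Gy x2 overlapped both groups. That order rests on Tchh and Rptn, for trichohyalin and repetin of the S100 fused-type family, which were picked out after their values were seen. Tchh gave 8, 5 and 2 calls in the 3 groups and Rptn 6, 0 and 2. Without both, the values were 6.81 ± 4.33, 8.79 ± 4.55 and 5.85 ± 0.927 per 10000 (SD, n = 4 each), and all groups overlapped. In the gene fit 5 of the 45 could be tested and 0 passed in either direction in any of the 3 comparisons; at an unadjusted p under 0.05 there were 1, 2 and 0 of the 5, and 431, 680 and 107 of all 2579 genes. Cers3, a ceramide synthase of the epidermal barrier, had a log2 fold change of 4.12 for 5 Gy x2 over control (edgeR adjusted p = 0.204). It rests on 0 control calls and on 0, 5, 1 and 2 calls in the 5 Gy x2 libraries. For 5 Gy x4 over control, Dst, a plakin that links keratins to hemidesmosomes, had 1.49 (adjusted p = 0.185) and Tchh -2.72 (adjusted p = 0.0839). Cers3, Dst and Tchh are named for their unadjusted p. The other tested genes, Abca12 and Dsc3, had 0.36 and -0.008 for 5 Gy x2 over control, and 0.99 and 0.44 for 5 Gy x4.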

How the data were processed

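The authors deposited whole-number counts of supporting reads per circle and library, and an annotation table with each circle's rn6 position, length, type and genes, per the file headers. BWA, Picard and bedtools are named, without versions, in the submitters' processing notes, and the circle caller is not given in the sources used here. Deposited starts are counted from 0 and are given here from 1. Members and gene lists were chosen with earlier results of these data known.

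A circle was present in a library with at least 1 supporting read. Calls were summed per gene family, gene and 1 Mb window and tested with edgeR 4.0.16 in R 4.3.3 (quasi-likelihood test after TMM and filterByExpr, number of eccDNA as library size, all 12 libraries, group as the only term, Benjamini-Hochberg adjusted p of 0.05). DESeq2 1.42.0, library size alone, a minimum of 10 calls, 2 supporting reads and leaving out each library were alternatives. With all 12 libraries the keratin families fail filterByExpr, so their main values come from the minimum of 10. The edgeR fits of genic families and windows under the default filter were tested on simulated data. The gene and flank fits and those with a minimum of 10, which give the member family and gene values, were not. Expected numbers use the other genic circles of the same library, with a sign-flip permutation test. Python 3.11.15 (pandas 2.3.3) gave the shares. Supporting reads per library ran from 35525 to 404815, with total depth unknown. They are amplified reads without molecular identifiers. The 15 genes with most genic calls, the 6 with most flank calls, Lor, Flg, Ivl, Hrnr, genes of circles in 2 or more libraries and the 5 circles with most reads, length and libraries were to be named.

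Same-numbered libraries of different groups did not deviate together (correlations over windows of -0.08 to 0.11), so the numbers were not taken as pairs.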

Additional observations from a re-analysis of the deposited data

Results flagged for a closer look

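In 3 measures 1 library stood far from the other 3 of its group. Chance sets about 1 in 20 groups apart by this measure, and the cause was not tested. Replicate 4 of 5 Gy x2 held 2 genic member circles of 330 to under 420 bp, where each of the others held 5; it also held the fewest eccDNA of its group, 6326. Replicate 2 of 5 Gy x4 had 4.52 genic member circles per 10000 eccDNA of other lengths, and the lowest library of that group had 1.31. Replicate 4 of 5 Gy x4 had 15.3 supporting reads per member circle, against a lowest library of 2.25.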

How the results depend on the processing

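The direction of the genic member folds below 1 held under each alternative that was run. Leaving out 1 library gave 0.288 to 0.387 for 5 Gy x2 and 0.157 to 0.218 for 5 Gy x4 over control, and 0.499 to 0.615 between the irradiated groups. Larger moves came with supporting reads as the base (0.697 and 0.387 over control), within 330 to under 420 bp (0.796, 0.605 and, between irradiated groups, 0.761) and at other lengths (0.332 between irradiated groups). Flank folds ranged from 1.49 to 3.65 and from 0.931 to 2.44, and over supporting reads the flank folds were 7.19 and 4.64. The exonic excess was 24.8 to 29.1 without 1 library. The deficit at 330 to under 420 bp ran from -14.2 to -7.99.

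Counts of calls over the whole table moved more, and the cause was not tested. For 5 Gy x2 and 5 Gy x4 over control and between irradiated groups, 32, 50 and 1 windows became 68, 96 and 2 with library size alone, 3, 14 and 0 with DESeq2, 56, 98 and 0 with a minimum of 10 circles, 15, 32 and 2 with 2 supporting reads, and 0, 0 and 0 of 14 without circles of 330 to under 420 bp. Member windows passing went from 0 and 0 to 1 and 2 with library size alone and to 1 and 1 with the minimum of 10. Without 1 library, windows numbered 12 to 44, 37 to 76 and 0 to 2, and member windows 0 to 1. Families numbered 4 and 5, with 2 for 5 Gy x2 under DESeq2, 0 and 9 with the minimum of 10, and 1 to 7 in both without 1 library. Krt, not testable with all 12, passed for 5 Gy x4 over control in 6 of those 12 fits. It entered such a fit only when control replicates 2, 3 and 4 were all in. Genes numbered 6 and 8, with 0 for 5 Gy x2 under DESeq2, 0 and 3 with the minimum of 10, and 2 to 15 and 4 to 15 without 1 library.

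Some family values between irradiated groups changed sign, each far from the threshold. Krt genic ran from -0.27 to 0.00 (0.0039, without replicate 3 of 5 Gy x4). Krt flank ran from -0.90 to 0.074, and Krtap flank from -0.49 to 0.58, against 0.25, with -0.11 under library size alone. For 5 Gy x4 over control Krt flank was -0.062 under library size alone. With the replicate number as a block, windows numbered 23, 44 and 0, families 4, 4 and 0 and genes 4, 8 and 0, and no member passed; the numbers are not shown to pair the libraries.

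Few circles limit these results: most member genes have 1 or 2 calls, so single genes other than Krt5, Krt14 and Krtap4-3 could not be tested. Family and member alternatives under the minimum of 10, 1 listed gene, circle length and Lor were chosen after seeing the data.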
